A study of Mus musculus with 6 samples.

Results

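The cells described here are the *Csf1r*-positive, *Ccr7*-negative cells of cultured murine dendritic cells (DCs), taken from an untreated library and from a library of DCs after Cas9-mediated knockout of *Ndrg2* (Ndrg2-KO). They were chosen on their own counts of unique molecular identifiers (UMIs, 1 per captured RNA molecule): at least 2 UMIs of *Csf1r* and 5 of *Lyz2*, at most 1 of *Ccr7*, and 0 of *Mki67*, *Top2a*, *Elane* and *Prtn3*. Of the 15226 cells of both libraries that passed the filters, 3510 met this rule, 933 in the untreated and 2577 in the Ndrg2-KO library. The series holds 41068 deposited cell barcodes in 6 libraries. The others are 1 library of DCs treated with vitamin D3 (VD3) and 3 libraries of wound tissue.

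All cultured DCs were grown from bone marrow of wild-type C57BL/6J mice with GM-CSF, and only the cells in suspension were collected. The Ndrg2-KO cells received Cas9 protein with 3 single-guide RNAs against *Ndrg2* by nucleofection and were sequenced as an edited bulk culture, not as 1 clone. The untreated cells were not nucleofected, and a culture nucleofected with non-targeting guides is not analysed here. Knockout and nucleofection cannot be told apart. Each condition is 1 library. The number of mice behind each culture is not given in the sources used here. No test between conditions was therefore possible, and the values below compare these libraries. Intervals in parentheses are exact 95% intervals and cover counting error only.

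GM-CSF cultures of bone marrow hold monocyte-derived cells at several stages. Immature cells carry CSF1R, the receptor for M-CSF, and take up and digest material, whereas mature DCs express CCR7, the receptor that guides them to lymph nodes, and present antigen on MHC class II. Macrophages that clear lipid and debris are known for lysosomal proteases, lipid-binding proteins and osteopontin. NDRG2 is a cytoplasmic protein of the N-myc downstream-regulated gene family.

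The 933 untreated cells were 12.9% of the kept cells of their library (12.1 to 13.6%), and the 2577 Ndrg2-KO cells were 32.3% (31.3 to 33.4%). Depth was similar, with a median of 17983 UMIs per untreated cell (range 974 to 61435) and 18418 per Ndrg2-KO cell (range 729 to 65597). The summed UMIs were 16446396 and 50965134. A median of 5.94% of UMIs was mitochondrial in the untreated and 6.50% in the Ndrg2-KO cells. Of all deposited barcodes the libraries shared 16, and of the chosen cells 1. With under 5% mitochondrial UMIs required, the shares were 7.49% (234 of 3125 cells) and 30.3% (521 of 1721).

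The difference in share built up along the rule. Of the untreated kept cells, 38.8% had at least 2 *Csf1r* UMIs, against 62.4% of the Ndrg2-KO cells. The *Lyz2* and *Ccr7* limits left 2362 untreated and 4382 Ndrg2-KO cells. Among these, 59.5% of the untreated and 37.5% of the Ndrg2-KO cells had a UMI of *Mki67* or *Top2a*, which mark dividing cells, and were left out. In cells with at least 5 *Ccr7* UMIs (Ccr7-high cells, 2907 untreated and 2048 Ndrg2-KO), the share with a UMI of *Mki67* or *Top2a* was 17.8% and 13.6%. A further 23 untreated and 162 Ndrg2-KO cells were left out for a UMI of *Elane* or *Prtn3*, which encode granule proteases of myeloid precursors.

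The *Csf1r* limit ran through a continuous range of counts. Just outside lay 270 untreated and 351 Ndrg2-KO cells with 1 *Csf1r* UMI, which had medians of 3502 and 10612 UMIs in all. Just inside lay 176 and 352 cells with 2 *Csf1r* UMIs, with medians of 8438 and 13300 UMIs. The cells with 3 or more had 19257 and 19239. At the *Ccr7* limit, 69 untreated and 278 Ndrg2-KO cells with 1 UMI were inside and 3 and 44 cells with 2 UMIs outside. Hardly any cell lay near the *Lyz2* limit: 5 UMIs were found in 5 untreated cells and 1 Ndrg2-KO cell, and 4 UMIs in 11 and 2 cells.

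The markers of the population were present in both libraries. Levels are given as a gene's UMIs per 1000000 summed UMIs (CPM). *Csf1r*, a gene of the rule, had 328 CPM among the untreated and 308 CPM among the Ndrg2-KO cells, with a median of 5 UMIs per cell in both. *Lyz2*, which encodes lysozyme and was also part of the rule, stood at 14668 and 23104 CPM. *Ccr2*, the receptor that draws monocytes out of the bone marrow, stood at 468 and 684 CPM, and in the remaining kept cells at 296 and 473 CPM. *Flt3*, the receptor of DC precursors, had 10 UMIs in all untreated and 1 in all Ndrg2-KO cells. *Itgax* (CD11c) was read at 299 and 314 CPM. Summed over the 16 genes of a costimulation and maturation list, the level was 712 and 887 CPM, against 8047 and 8971 CPM in the remaining kept cells.

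RNA of other lineages was low, except that of neutrophil granules. Lists of 16 lymphocyte and NK genes, 13 stromal and endothelial genes and 7 erythroid genes each summed to at most 3.34 CPM in either library. The 10 basophil and mast cell genes summed to 5.72 and 13.1 CPM. The 14 neutrophil genes summed to 3270 CPM (untreated) and 599 CPM (Ndrg2-KO), and in the remaining kept cells to 5889 and 964 CPM. *Ly6g* and *Retnlg*, found in mature neutrophils, had at most 2 UMIs in either set of chosen cells.

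*Ndrg2* itself was close to undetected in these cells. It had 23 UMIs in the untreated and 37 in the Ndrg2-KO cells, or 1.40 and 0.726 CPM, a log2 ratio of -0.95 (-1.73 to -0.13). In the remaining kept cells it stood at 5.08 and 0.971 CPM. A transcript with a small insertion or deletion can still be counted, so these levels do not measure the protein.

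Over all genes, 8733 had a mean of at least 5 CPM over both sets of chosen cells. Of these, 496 (5.68%) were at least 2-fold higher and 462 (5.29%) at least 2-fold lower in Ndrg2-KO than in untreated cells. The median log2 ratio over the 8733 genes was -0.11, and the middle 90% of genes ran from -1.02 to 1.07. Scaling by the median ratio in place of the summed UMIs set that median at 0 and gave 587 genes higher and 353 lower, so that 62.4% and not 51.8% of these genes were higher. All ratios below are log2 ratios of CPM, Ndrg2-KO minus untreated, and are to be read against -0.11.

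**Figure D1:**
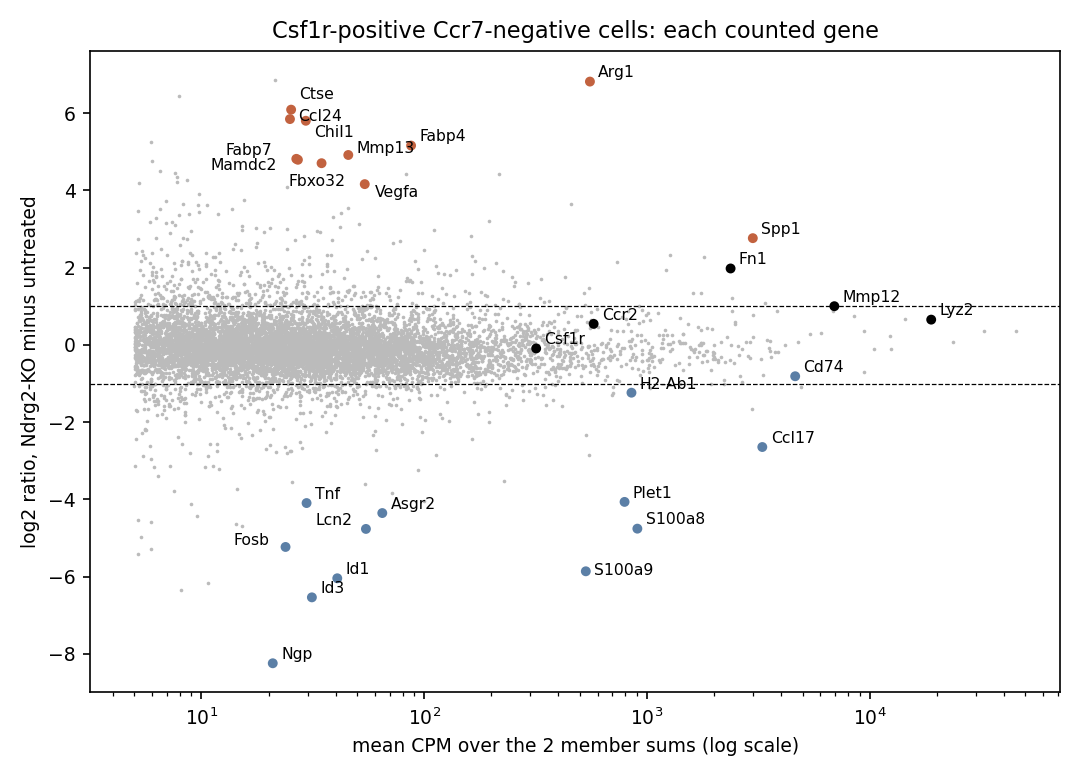
Log2 ratio of CPM, Ndrg2-KO minus untreated (y axis), against the mean CPM over both libraries (x axis, log scale) for each of the 8733 genes in the summed *Csf1r*-positive *Ccr7*-negative cells. Black points are the markers of the population, orange and blue points are named genes that were higher or lower in Ndrg2-KO cells, and dashed lines mark a 2-fold difference. *Arg1* stands apart at 6.82 with a mean level above that of *Csf1r*.

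Among the 10 genes with the highest ratios at a mean of at least 20 CPM, *Arg1* reached by far the highest level. *Arg1*, the enzyme that splits arginine into ornithine and urea and marks alternatively activated macrophages, had 160 UMIs in untreated and 56038 in Ndrg2-KO cells. These were 9.73 and 1100 CPM, a log2 ratio of 6.82 (6.60 to 7.05) or 113-fold.

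Other genes of this group encode secreted, lysosomal and lipid-binding proteins. *Ctse*, an aspartic protease of the endosome, had 12 and 2538 UMIs (0.730 and 49.8 CPM, 6.09, interval 5.29 to 7.05), so its ratio rests on few untreated molecules. *Ccl24*, a ligand of the eosinophil receptor CCR3, stood at 0.851 and 49.1 CPM, and *Chil1*, a chitinase-like protein, at 1.03 and 57.8 CPM. Their untreated levels were near that of *Ctse*, so their ratios rest on few untreated molecules too. The fatty acid-binding proteins *Fabp4* and *Fabp7* had 4.74 and 1.82 CPM in untreated and 169.9 and 51.5 CPM in Ndrg2-KO cells. *Mmp13*, a collagenase, had 2.92 and 88.3 CPM. *Mamdc2* (1.88 and 52.3 CPM) and *Fbxo32*, which encodes a subunit of a ubiquitin ligase (2.55 and 66.7 CPM), had ratios of 4.79 and 4.71. Over 12 alternatives for the cells and the scaling the ratio of *Arg1* ran from 6.56 to 7.97, of *Ccl24* from 4.77 to 7.37, of *Fabp4* from 4.76 to 7.57, of *Fabp7* from 4.12 to 5.62 and of *Mmp13* from 3.40 to 5.12. That of *Chil1* (5.80) ran from 4.42 to 8.10, with 8.10 without the cells rich in *S100a8* and *S100a9*.

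These genes also had higher values in the Ccr7-high cells of the Ndrg2-KO library. *Arg1* stood there at 2.25 and 221 CPM (6.61), *Ctse* at 0.182 and 28.1 CPM and *Fabp4* at 4.85 and 62.9 CPM (3.70). The median log2 ratio over genes in Ccr7-high cells was 0.09. Both comparisons come from the same pair of libraries, and the differences between them were not tested.

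Among the 10 genes with the lowest ratios were 4 known from neutrophils. *Ngp*, a granule protein of neutrophil precursors, had 685 UMIs in untreated and 7 in Ndrg2-KO cells (41.7 and 0.137 CPM, -8.24). *S100a8* and *S100a9*, the subunits of calprotectin, stood at 1747 and 64.6 CPM and at 1045 and 18.0 CPM. *Lcn2*, which encodes a siderophore-binding protein, was at 106 and 3.89 CPM. These values came largely from 1 untreated subgroup of 247 cells, in which *Ngp* stood at 323 CPM against 2.42 CPM in the other untreated cells. Without cells rich in *S100a8* and *S100a9*, the ratio of *Ngp* was -2.0 and that of *Lcn2* -2.88.

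*Id3* and *Id1*, inhibitors of basic helix-loop-helix factors, had 62.0 and 80.2 CPM in untreated and 0.667 and 1.22 CPM in Ndrg2-KO cells (-6.54 and -6.04). *Fosb*, a subunit of AP-1, stood at 46.5 and 1.24 CPM and *Tnf*, the inflammatory cytokine, at 56.0 and 3.28 CPM. *Plet1*, a surface protein, was the most abundant gene after *S100a8* in this group, at 1497 and 89.5 CPM (-4.06). *Asgr2*, a subunit of the asialoglycoprotein receptor, stood at 124 and 6.04 CPM. In Ccr7-high cells *Id3* was at 108 and 2.35 CPM and *Plet1* at 204 and 21.8 CPM.

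Of 18 counted genes of the extracellular matrix and its proteases, 9 were at least 2-fold higher and 1 lower, with a median of 0.90, beside 5.68% higher and 5.29% lower over all genes. In Ccr7-high cells the list median was 1.49, beside 0.09 over all genes there, so the shift was not particular to the *Csf1r*-positive cells. *Fn1* (fibronectin) stood at 960.3 CPM (945 to 975) in untreated and 3788 CPM (3771 to 3805) in Ndrg2-KO cells, a ratio of 1.98. *Spp1* (osteopontin) was at 766 and 5208 CPM (2.77). *Mmp12*, the macrophage elastase, stood at 4620 and 9258 CPM, at the 2-fold limit with a ratio of 1.0 that fell below it under 5 of the alternatives tried. *Timp1*, an inhibitor of matrix metalloproteinases, had 10.5 and 91.2 CPM, while *Tgfbi*, a matrix protein induced by TGF-beta, was lower at 430.1 and 199 CPM (-1.11), and under 2-fold lower with under 5% mitochondrial UMIs or by the rule on cells drawn to 8000 UMIs.

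Per cell, *Fn1* was higher over most of the population. After each cell was drawn down to 5000 UMIs (837 untreated and 2548 Ndrg2-KO cells, leaving out 96 and 29 shallower ones), the median was 3 *Fn1* UMIs in untreated and 18 in Ndrg2-KO cells. Of the Ndrg2-KO cells, 64.0% lay above 13 UMIs, the 90th percentile of the untreated cells. Medians for *Mmp12* were 16 and 37 UMIs and for *Spp1* 1 and 9. At this depth an *Arg1* UMI was found in 2.63% of untreated (1.65 to 3.95%) and 61.8% of Ndrg2-KO cells (59.9 to 63.7%).

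The same shares were taken in Ccr7-high cells for comparison. Free RNA was not estimated, so it cannot be told apart there from expression by these cells. At 5000 UMIs, *Arg1* was found in 0.521% of untreated and 15.3% of Ndrg2-KO Ccr7-high cells, and *Fn1* in 10.6% and 45.8%, against 68.2% and 96.1% of the *Csf1r*-positive cells. *Ccr2* was found in 60.2% and 79.4% of the *Csf1r*-positive and 9.93% and 20.9% of the Ccr7-high cells. Without drawing down, *Arg1* was found in 5.04% and 74.3%, *Fn1* in 70.3% and 97.4% and *Ccr2* in 66.5% and 91.2% of the *Csf1r*-positive cells. Median depth before drawing was 15298 and 13026 UMIs in Ccr7-high cells.

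**Figure D2:**
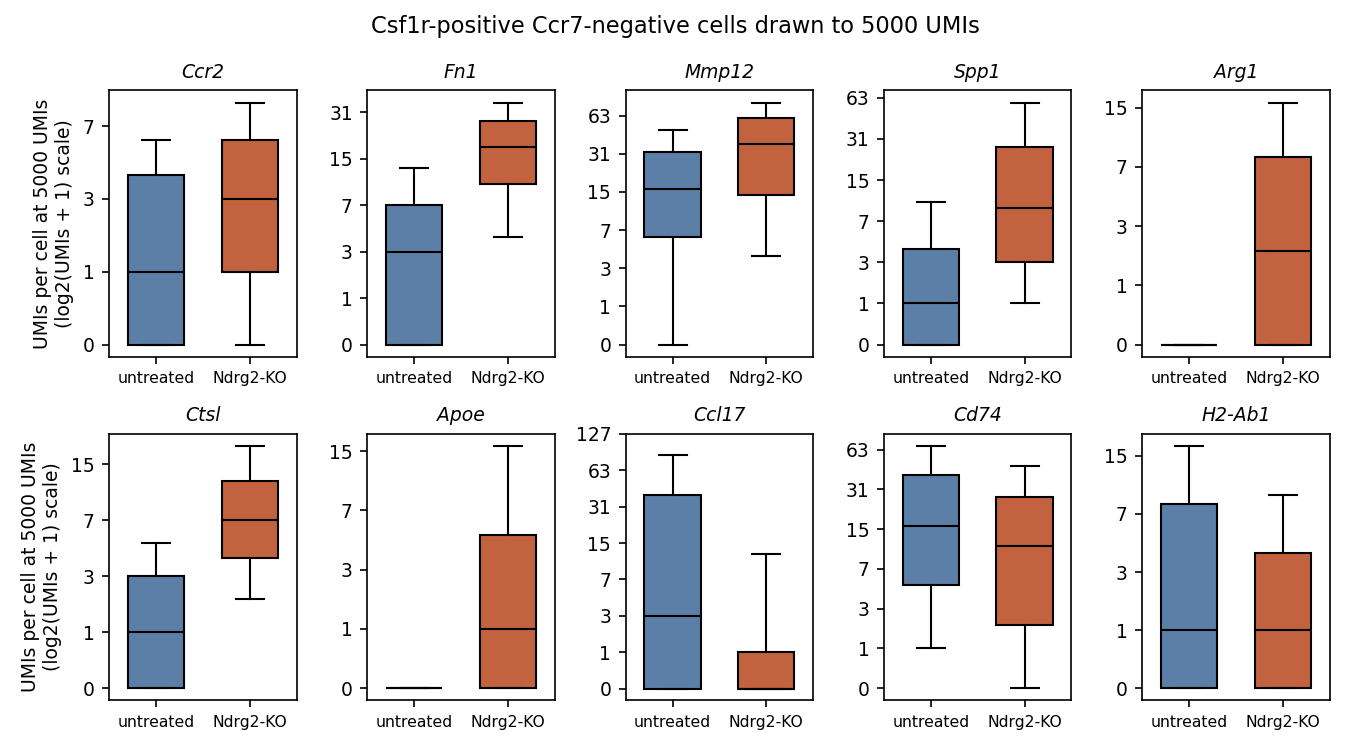
UMIs per cell at 5000 UMIs (y axes, on a log2(UMIs + 1) scale, each gene with its own range) in 837 untreated (blue) and 2548 Ndrg2-KO (orange) *Csf1r*-positive *Ccr7*-negative cells. Boxes run from the first to the last quartile with a line at the median, and whiskers from the 10th to the 90th percentile of cells. The box of *Fn1* in Ndrg2-KO cells, from 10 to 27 UMIs, lies above the untreated box, from 0 to 7. That of *Ctsl*, from 4 to 12, lies above the untreated box, from 0 to 3. The boxes of the other genes overlap or touch.

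Growth factor genes lay on both sides, with 4 of 13 counted genes at least 2-fold higher and 2 lower (5 and 4 with under 5% mitochondrial UMIs). Among all genes 5.68% were higher and 5.29% lower. The list median was -0.07, and 0.77 in Ccr7-high cells. *Vegfa*, which drives the growth of blood vessels, had 94 untreated UMIs (5.72 CPM) and 5221 Ndrg2-KO UMIs (102 CPM), a ratio of 4.16 (3.87 to 4.47). Over the alternatives it ran from 3.55 to 4.91, and it was 4.76 without the cells rich in *S100a8* and *S100a9*. The highest untreated level, 21.9 CPM, was in the subgroup of 247 cells with granule genes. A *Vegfa* UMI was found in 3.23% and 36.5% of cells at 5000 UMIs, and in 0.729% and 27.2% of Ccr7-high cells. *Igf1* (insulin-like growth factor) stood at 55.0 and 272 CPM, *Hgf* (hepatocyte growth factor) at 1.64 and 8.48 CPM (2.37, from 1.27 to 2.57 over the alternatives) and *Vegfb* at 6.38 and 15.3 CPM. *Pgf* (placental growth factor), another ligand of a VEGF receptor, was lower at 14 and 1.02 CPM (-3.78), and *Tgfb1* stood at 342 and 259 CPM, under a 2-fold difference.

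Of 17 counted genes of lipid-associated macrophages, 10 were at least 2-fold higher and none lower, beside 5.68% and 5.29% over all genes. The list median was 1.35, and it was also 1.35 in Ccr7-high cells. *Apoe*, the lipoprotein that carries cholesterol out of macrophages, stood at 67.7 and 844 CPM (3.64, from 2.49 to 5.66 over the alternatives). *Fabp5* was at 624 and 2999 CPM, *Gpnmb*, a transmembrane glycoprotein of lysosome-rich macrophages, at 273 and 1201 CPM and *Cd36*, a scavenger receptor for oxidised lipid, at 504 and 1931 CPM. *Trem2*, a lipid receptor, stood at 296 and 573 CPM (0.95) and the galectin *Lgals3* at 8254 and 10566 CPM, both under 2-fold.

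Of 31 lysosome and cathepsin genes counted, 11 were at least 2-fold higher and 1 lower, with a median of 0.66, beside 5.68% and 5.29% over all genes. In Ccr7-high cells the list median was 0.69. The cysteine protease *Ctsl* stood at 423 and 2119 CPM (2.33), with a median of 1 UMI per untreated and 7 per Ndrg2-KO cell at 5000 UMIs. *Ctsb* was at 982 and 2507 CPM and *Ctsd*, an aspartic protease, at 2172 and 4590 CPM. *Psap*, the precursor of the saposins, stood at 4794 and 8827 CPM, under 2-fold. The gene that was lower was *Cst3*, which encodes the cathepsin inhibitor cystatin C, at 2978 and 1479 CPM (-1.01), and it passed under the 2-fold limit in 5 of the alternatives.

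Among 14 counted genes of cholesterol efflux and lipid handling, 6 were at least 2-fold higher and none lower, beside 5.68% and 5.29% over all genes. *Abca1*, which exports cholesterol, stood at 25 and 197 CPM (2.98). Of 23 counted genes of sterol and fatty acid synthesis, 4 were higher and none lower, beside the same shares, with a median of 0.21. Among these *Scd1*, a fatty acid desaturase, was at 7.36 and 41.2 CPM, and *Fasn*, fatty acid synthase, at 37.8 and 24.0 CPM.

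Of 16 counted interferon-stimulated genes, 10 were at least 2-fold higher and none lower, beside 5.68% and 5.29% over all genes. The list median was 1.43, and 0.99 in Ccr7-high cells. With under 5% mitochondrial UMIs, 17 of 18 were higher, beside 687 of 8803 over all genes. *Rsad2* (viperin) had 13 and 754 UMIs, or 0.790 and 14.8 CPM (4.23, interval 3.44 to 5.14, and from 3.44 to 5.68 over the alternatives). *Ifi27l2a* stood at 195 and 664 CPM and *Oasl2* at 3.41 and 26.9 CPM (2.98, from 1.49 to 3.49 over the alternatives). *Bst2* (tetherin) was at 118 and 210.0 CPM and *Zbp1*, a sensor of nucleic acids, at 21.2 and 33.9 CPM, both under 2-fold.

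**Figure D3:**
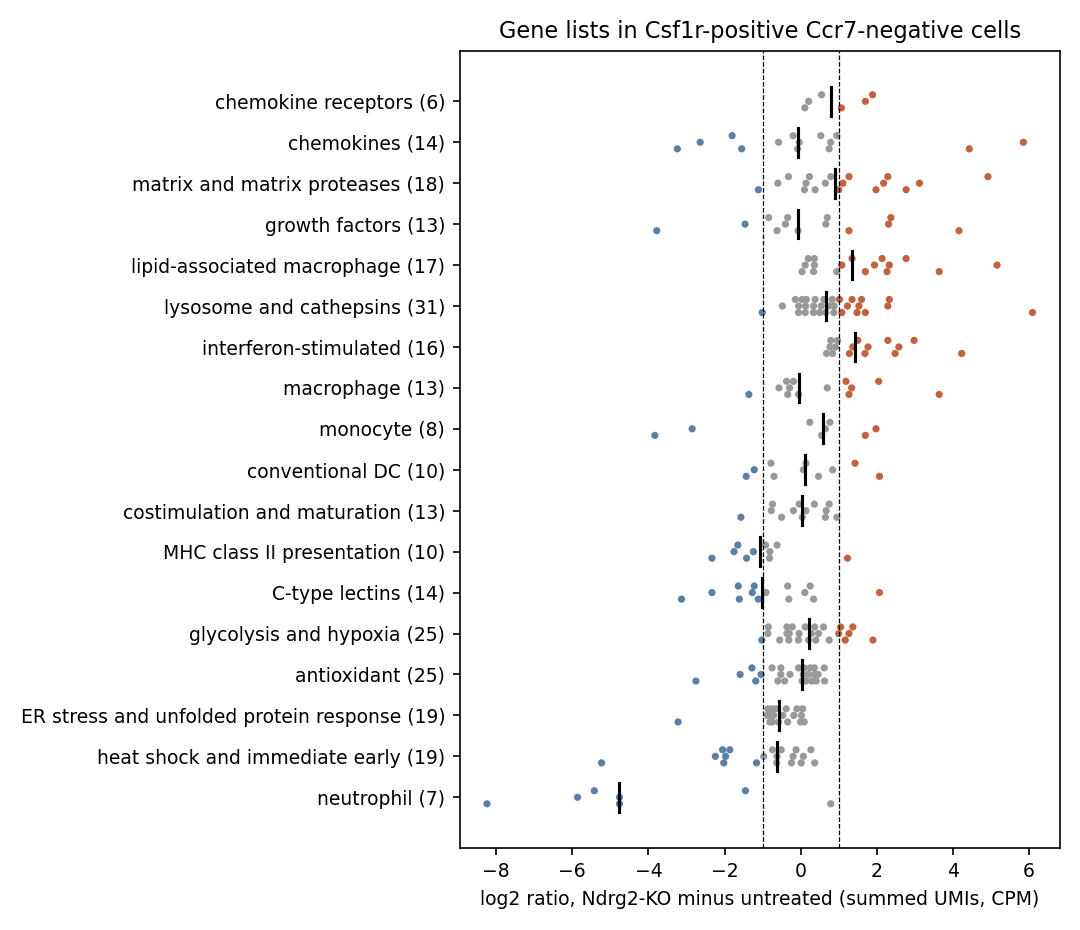
Log2 ratio of CPM, Ndrg2-KO minus untreated (x axis), for each gene with a mean of at least 5 CPM in 18 gene lists (rows, with the number of genes shown). Each point is 1 gene, orange at least 2-fold higher and blue at least 2-fold lower in Ndrg2-KO cells, black bars are list medians and dashed lines mark 2-fold. The medians run from -4.76 (neutrophil) to 1.43 (interferon-stimulated).

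Of 10 counted genes of MHC class II presentation, 5 were at least 2-fold lower and 1 higher, beside 5.29% and 5.68% over all genes. The list median was -1.08. *H2-Ab1*, a chain of the antigen-presenting dimer, stood at 1197 and 508 CPM (-1.24), *H2-Eb1* at 845 and 446 CPM and *H2-Aa* at 1103 and 717 CPM. *Ciita*, the regulator that switches these genes on, was at 43.9 and 13 CPM (-1.75) and *H2-DMb2*, which helps to load peptides, at 28.2 and 5.61 CPM (-2.33). *Cd74*, the invariant chain, was at 5897 and 3361 CPM (-0.81). The gene that was higher was *Ctss*, the protease that trims the invariant chain, at 1437 and 3367 CPM.

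At 5000 UMIs the median *Cd74* count was 16 in untreated and 11 in Ndrg2-KO cells, and the median *H2-Ab1* count was 1 in both, with a 90th percentile of 17 and 9. In Ccr7-high cells *H2-Ab1* stood at 733 and 654 CPM and *Cd74* at 9615 and 7814 CPM. When each cell's CPM was averaged in place of the sum, *H2-Ab1* was under 2-fold lower and the list median was -0.72.

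Chemokine genes were split as well, with 2 of 14 counted genes at least 2-fold higher and 4 lower (4 and 5 with under 5% mitochondrial UMIs). Among all genes the shares in the main comparison were 5.68% and 5.29%. *Ccl17*, the ligand of CCR4 on T cells, was the most abundant of those that were lower, at 5681 and 909 CPM (-2.64, from -3.73 to -2.44 over the alternatives), and was found in 60.5% and 36.6% of cells at 5000 UMIs. In Ccr7-high cells, of which 89.4% and 83.9% had a *Ccl17* UMI, it stood at 2156 and 1825 CPM. The neutrophil attractants *Cxcl2* and *Cxcl3* had 169 and 526 CPM in untreated and 17.9 and 179 CPM in Ndrg2-KO cells. The log2 ratio of *Cxcl3* was, however, 0.10 with under 5% mitochondrial UMIs. *Ccl6*, the most abundant gene of the list, stood at 6324 and 10604 CPM, and *Cxcl14* was higher at 7.36 and 159 CPM (4.43).

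Of 6 chemokine receptor genes counted, 3 were at least 2-fold higher and none lower, beside 5.68% and 5.29% over all genes. This count depended on the cells and the averaging: 1 of 8 was higher and 1 lower with the mean CPM of cells, and 2 were higher and 1 lower with under 5% mitochondrial UMIs or with at least 1 *Csf1r* UMI. *Cxcr4*, the receptor for CXCL12, stood at 6.38 and 23.7 CPM (1.89) and was under 2-fold with the mean CPM of cells and with under 5% mitochondrial UMIs. *Cx3cr1*, the fractalkine receptor, stood at 4.32 and 14 CPM (1.70). *Ccr2* was under 2-fold, at 0.55 (0.51 to 0.58). Among receptors of colony-stimulating factors, *Csf2rb*, the shared chain of the GM-CSF receptor, whose reads can be split with its near-identical copy *Csf2rb2*, was at 1001 and 768 CPM and *Il3ra*, which binds interleukin 3, at 19.0 and 38.9 CPM.

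Of 14 counted C-type lectin genes, 7 were at least 2-fold lower and 1 higher, the latter near the 5.68% over all genes. The share lower over all genes was 5.29%, and the list median was -1.01. With under 5% mitochondrial UMIs, 5 were lower and the median was -0.46. *Mgl2*, a galactose-binding lectin of DCs, stood at 887 and 177 CPM (-2.33), and *Clec4n* (dectin-2), the most abundant, at 2895 and 1536 CPM. *Clec4a1* had 20.3 and 2.32 CPM, but genes of its family share sequence and their reads could be split. *Clec9a*, a receptor for dead cells, was higher at 3.1 and 13 CPM (2.07, from 1.92 to 3.35 over the alternatives).

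Genes of alternative activation were also split, with 4 of 12 counted genes at least 2-fold higher and 5 lower, beside 5.68% and 5.29% over all genes. Beside *Arg1*, *Retnla* (2.07 and 21.6 CPM) and *Ear2*, a ribonuclease (78.6 and 342 CPM), were higher. *Chil3*, a chitinase-like protein of monocytes and macrophages, was lower at 968 and 134 CPM (-2.85), as were *Mgl2* and *Ccl17*. *Chil3* stood at 6489 CPM in the untreated subgroup of 247 cells with granule genes, and its ratio was -1.21 without the cells rich in *S100a8* and *S100a9*. Of 8 counted monocyte genes, 2 were at least 2-fold higher and 2 lower, beside the same shares over all genes, with a median of 0.60. The largest ratio upwards was that of *Fn1*, whereas *Ly6c2*, the surface antigen of inflammatory monocytes, stood at 134 and 9.36 CPM (-3.83).

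Of 13 counted macrophage genes, 5 were at least 2-fold higher and 1 lower, the latter near the 5.29% over all genes. The share higher over all genes was 5.68%. *Mertk*, a receptor for dying cells, stood at 14.2 and 58.7 CPM. *C1qa*, a subunit of complement C1q, was lower at 346 and 135 CPM, though not past 2-fold with under 5% mitochondrial UMIs or the mean CPM of cells, while *Adgre1* (F4/80) was at 48.2 and 32.5 CPM, under 2-fold.

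Heat shock and immediate early genes held 7 of 19 counted genes at least 2-fold lower and none higher, beside 5.29% and 5.68% over all genes. The list median was -0.63. All 7 are immediate early genes, which respond quickly to stimuli (*Fosb*, *Fos*, *Egr1*, *Dusp1*, *Ier3*, *Ier2* and *Junb*). *Fos* stood at 98.8 and 20.9 CPM, *Egr1* at 129 and 31 CPM and *Ier3* at 206 and 52.5 CPM. Of 25 antioxidant genes counted, 5 were at least 2-fold lower and none higher, beside the same shares. The other 20 were under 2-fold, and the list median was 0.04. *Mgst1* (0.62) and *Prdx4* (0.25), which the study names as anti-oxidative, were under 2-fold. *Nqo1*, a quinone reductase, stood at 43.5 and 6.46 CPM (-2.75) and *Gclm*, a subunit of the enzyme that starts glutathione synthesis, at 625 and 207 CPM.

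Genes of the response to stress of the endoplasmic reticulum had a median of -0.58, with 1 of 19 at least 2-fold lower, a share like the 5.29% over all genes. With under 5% mitochondrial UMIs, 6 of 20 were lower. The gene lower in the main comparison was *Asns*, asparagine synthetase, at 21.7 and 2.33 CPM. Of 25 counted glycolysis and hypoxia genes, 5 were at least 2-fold higher and 1 lower, the latter near the 5.29% over all genes. The share higher over all genes was 5.68%. The list median was 0.21, and 3 of its genes were higher when the CPM of each cell was averaged. *Hif1a*, the oxygen-regulated factor, was at 149 and 327 CPM and *Ankrd37*, a gene known to respond to hypoxia, at 5.41 and 20.2 CPM. Costimulation and maturation genes held 1 of 13 at least 2-fold lower, *Cd80*, at 22.6 and 7.61 CPM, and none higher, with a median of 0.04. The share lower was near the 5.29% over all genes. *Cd83*, another maturation marker, was at 9.36 and 15.8 CPM (0.75, from -0.48 to 1.17 over the alternatives). The costimulatory ligand *Cd86* was at 19.8 and 25.4 CPM. Both were under 2-fold in the main comparison. The count was 2 of 15 lower and 2 higher by the rule on cells drawn to 8000 UMIs.

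The 10 most variable genes of each library shared *Fth1*, *Mucl1*, *Ccl17* and *Lyz2*. The ratio of variance to mean over cells at 5000 UMIs was highest in untreated cells for *S100a9* (378), *S100a8* (298) and *Chil3* (68.5), followed by *Fth1*, *Ngp*, *Camp*, *Ccl17*, *Mucl1*, *Lcn2* and *Lyz2* (34.0). In Ndrg2-KO cells it was highest for *Fth1* (69.2), *Mucl1* (53.3), *Spp1* (50.8), *Gm26917* and *Lyz2*, followed by *Ccl17*, *Apoe*, *Cd74*, *Wfdc17* and *Retnla* (21.7). *Csf1r* had ratios of 1.05 and 1.18, but its counts were cut by the rule.

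Clustering split the untreated cells into 6 and the Ndrg2-KO cells into 7 subgroups, described here by number and leading genes. Untreated subgroup 2, with 247 of 933 cells, was led by the granule genes *Camp*, *S100a9*, *Ltf*, *Stfa2l1* and *Ngp*, had a median of 6661 UMIs per cell and held *S100a8* at 13203 CPM, *Chil3* at 6489 CPM and *Fn1* at 306 CPM. Untreated subgroup 1 (257 cells) was led by *Igf1*, *Clmp*, *Bhlhe41*, *Pmp22* and *Rnf128* and held *Fn1* at 1731 CPM. Subgroup 6 (51 cells), led by *Mucl1*, *Mt3*, *Ocstamp*, *Nes* and *Lmo1*, held *Ccl17* at 22674 CPM.

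The remaining untreated subgroups were led by *Dcstamp*, *H2-DMb1*, *Ccdc80*, *Tns1* and *Ly86* (189 cells), by *Pclaf*, *Ifitm1*, *Stmn1*, *Vrk1* and *Cdh1* (129 cells) and by *Nr4a3*, *H2-Q6*, *Syt7*, *H2-Q7* and *Cd83* (60 cells). Of these, *Pclaf* and *Stmn1* are genes of dividing cells, and *H2-Q6* and *H2-Q7* are near-identical copies whose reads could be split. Without all cells in which *S100a8* and *S100a9* reached 0.1% of UMIs, a limit chosen after seeing the data that left 755 untreated and 2544 Ndrg2-KO cells, the ratio of *Ngp* was -2.0, of *Chil3* -1.21 and of *Mmp12* 0.88. The ratios of *S100a8* (-1.26) and *S100a9* (-2.46) there are set by the limit itself. The neutrophil list held 4 counted genes there, and its median of -1.86 lies between these ratios, so the limit sets it too. *Arg1* was at 6.83, *Fn1* at 1.87 and *Id3* at -6.66 in those cells.

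Of the Ndrg2-KO subgroups, the largest, with 555 of 2577 cells, was led by *Fabp4*, *Mmp13*, *Mamdc2*, *Ccl2* and *Bhlhe41*. Subgroup 7 (157 cells) was led by *Egln3*, *Tnfrsf9*, *Hilpda*, *Selenbp1* and *Bnip3*, of which *Egln3*, *Hilpda* and *Bnip3* are known to be induced by hypoxia, and held *Arg1* at 3633 CPM and *Vegfa* at 433 CPM. Subgroup 6 (185 cells) was led by *S100a9*, *Lcn2*, *Mmp9*, *Car4* and *Ccnb2*.

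The others were led by *Ptx3*, *Ccl4*, *Ppbp*, *2010005H15Rik* and *Fst* (502 cells), by *Arrdc3*, *Ear2*, *C1qa*, *Enc1* and *Tmem176b* (475 cells), by *Nr4a3*, *Adra2a*, *Retnla*, *Vcan* and *Ccl17* (407 cells) and by *Apoe*, *Fos*, *Sirpb1c*, *Chil1* and *Enc1* (296 cells). Across untreated subgroups *Arg1* ran from 0 to 19.0 CPM and across Ndrg2-KO subgroups from 262 to 3633 CPM, with no overlap. *Vegfa* ran from 0.941 to 21.9 CPM and from 60.2 to 433 CPM, also with no overlap. This was not particular to *Arg1* and *Vegfa*. *Spp1* (639 to 1049 and 1417 to 8813 CPM), *Ctsl* (134 to 595 and 966 to 3545 CPM) and *Ifi27l2a* did not overlap either. The share of all genes without overlap was not computed. *Fn1* ran from 173 to 1731 CPM and from 1236 to 4713 CPM and overlapped. The subgroups were built from the same counts and are not replicates.

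**Figure D4:**
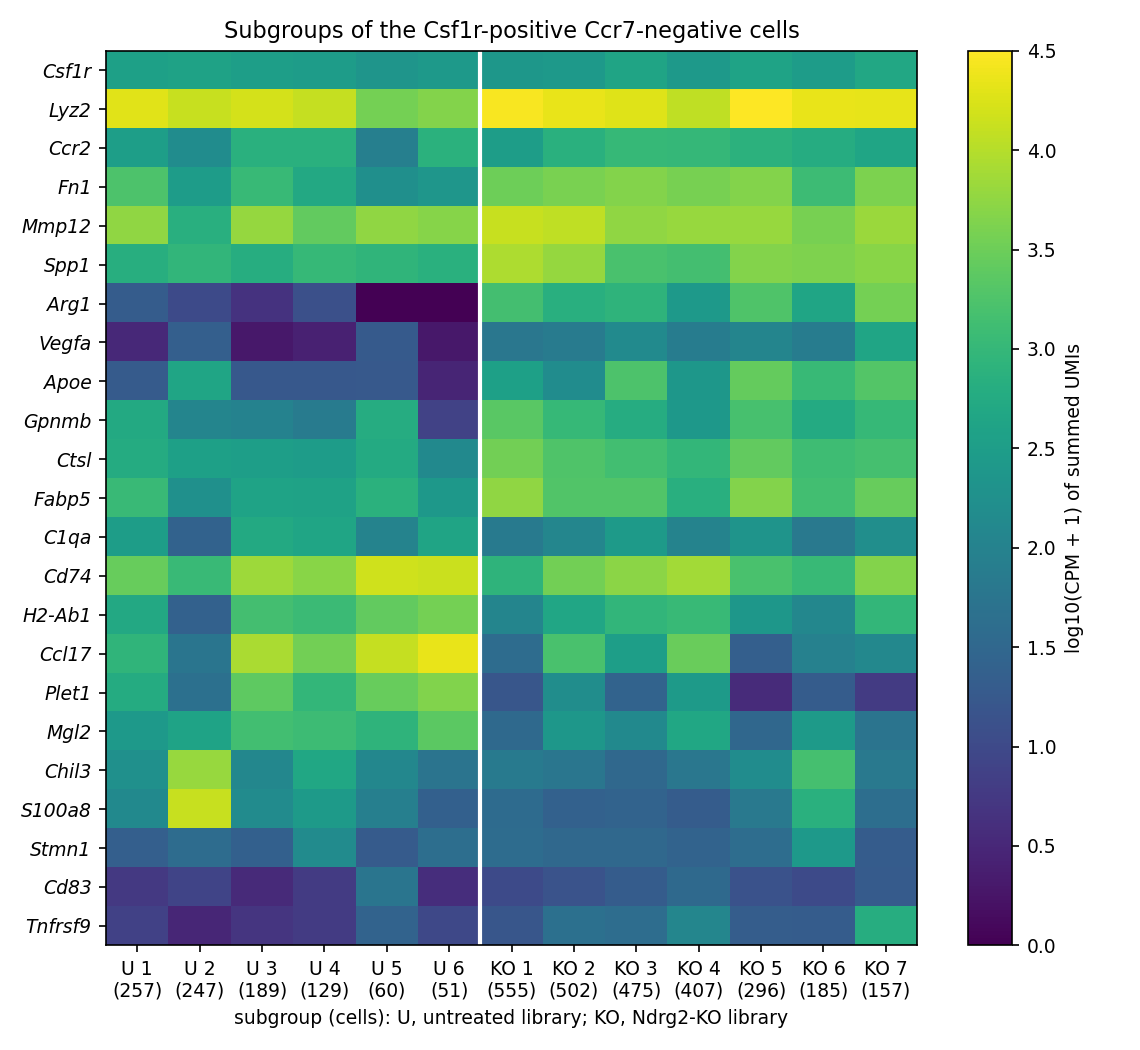
Level of 23 genes (rows) in 6 subgroups of the untreated (U, left of the white line) and 7 subgroups of the Ndrg2-KO (KO, right) *Csf1r*-positive *Ccr7*-negative cells, with the number of cells under each column. Colour is log10(CPM + 1) of UMIs summed over the subgroup. *Arg1*, *Vegfa*, *Spp1* and *Ctsl* are higher in each Ndrg2-KO than in each untreated subgroup, and *S100a8* peaks in untreated subgroup 2.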

How the data were processed

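Bone marrow-derived DCs were profiled with 10X Genomics Chromium. The authors made the deposited files, which hold raw UMI counts per gene and barcode, with Cell Ranger (version 3.1.0 per the file headers). The submitters' processing notes name the genome build mm9 and the study's methods mm10, so no coordinates are given. The antibody rows held 0 counts in both libraries and were not used.

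Following the study's filters, with its minimum of unique transcripts read as genes detected, a barcode was kept if it had 300.0 genes or more, fewer than 100000 UMIs and less than 10% of them mitochondrial. The rule given in the results was applied to the raw counts. The untreated library held 7866 barcodes with 136905324 UMIs, of which 7257 were kept, and the Ndrg2-KO library 9132 with 162369979, of which 7969 were kept. Scrublet's automatic threshold marked 1 cell per library as a doublet and so did not work here. No cell was removed in the main values, and 2 untreated and 30 Ndrg2-KO chosen cells lay among the 6% highest doublet scores.

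UMIs were summed over the chosen cells of a library and divided by their total (CPM). Genes with a mean of at least 5 CPM were counted, and 2-fold was the limit. Intervals are exact Poisson for CPM, Clopper-Pearson for shares and conditional binomial for ratios, all at 95%. On simulated counts for 8733 genes, the interval held the true ratio for 96.5% of 200 changed genes. For shares and variation, cells were drawn down to 5000 UMIs. Subgroups came from Leiden clustering of each library alone (2000 variable genes, 15 components, 15 neighbours, resolution 0.5).

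Named were the genes of the rule, the markers, the genes the study discusses for cultured DCs, the 10 highest and 10 lowest ratios at a mean of at least 20 CPM without mitochondrial and ribosomal protein genes, per list the highest and lowest ratio and the 2 most abundant genes, the 10 most variable genes per library, and the 5 leading genes per subgroup at 50 CPM or more. Further list members named in the text were chosen after their values were seen. The members and the 39 gene lists were chosen with earlier results of these data known. A few named genes are not reported here. *Aldoa* was left out because its symbol has 2 identifiers. Other mitochondrial limits, doublet removal, *Csf1r* and *Ccr7* limits, depths, scalings and CPM minimums were tried as alternatives. Python 3.11.15, NumPy 2.4.6, pandas 2.3.3, SciPy 1.17.1, scanpy 1.11.5 and matplotlib 3.10.9 were used.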

Additional observations from a re-analysis of the deposited data

Results flagged for a closer look

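In 5 genes, chosen because the log2 ratio passed 2-fold in opposite directions in *Csf1r*-positive *Ccr7*-negative cells and in Ccr7-high cells at a mean of at least 5 CPM in both, the difference between the populations was not tested. *Il18rap*, a subunit of the interleukin 18 receptor, was at -1.51 in the *Csf1r*-positive cells (12.3 CPM untreated and 4.34 CPM Ndrg2-KO) and at 2.28 in Ccr7-high cells (7.21 and 35 CPM). *Cd244*, a receptor of the SLAM family, was at -1.44 and 1.33, and *Gmds*, an enzyme of GDP-fucose synthesis, at -1.21 and 1.40. When each cell's CPM was averaged, *Cd244* was under 2-fold lower in the *Csf1r*-positive cells. *Sphk1*, which makes sphingosine 1-phosphate, was at 2.11 (3.28 and 14.1 CPM) and at -2.11 (14.2 and 3.28 CPM). *Sox4*, a transcription factor, was at 1.96 (3.1 and 12.1 CPM) and at -1.20 (90.7 and 39.4 CPM).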

How the results depend on the processing

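The share of kept cells was higher in the Ndrg2-KO library under each alternative run. It was 7.49% untreated and 30.3% Ndrg2-KO with under 5% mitochondrial UMIs, 16.6% and 36.7% with at least 1 *Csf1r* UMI, 8.52% and 23.3% with at least 4, and 11.9% and 28.8% with no *Ccr7* UMI. The Ndrg2-KO share was 33.8% without the 6% highest doublet scores and 30.6% on cells drawn to 8000 UMIs. A further 2 alternatives were chosen after seeing the data: without the cells with *S100a8* and *S100a9* the untreated share was 10.4%, and with no limit on *Elane* and *Prtn3* the Ndrg2-KO share was 34.4%. Genes at least 2-fold higher and lower numbered 887 and 716 at a mean of at least 1 CPM and 230 and 240 at 20 CPM, where the number of genes counted itself changes, and stayed within 1.5 times of the main counts otherwise. At resolution 1.0 there were 10 untreated and 14 Ndrg2-KO subgroups. Among the genes run that were past 2-fold in the main comparison, *Csf3r* changed sign, to 0.05 in cells with 10000 to 30000 UMIs. *H2-Q6* did so, to 0.05, by the rule on cells drawn to 8000 UMIs. With under 5% mitochondrial UMIs, *Cxcl3* (0.10) and *Ocstamp* (-0.18) changed sign. Genes under 2-fold also changed sign, such as *Cd83*, *Nr4a3*, *Mmp9* and *Egln3*. The cause was not tested. Of the 117 genes past 2-fold that were run in these alternatives, which include the counted genes named in the text, 108 to 117 stayed past it, and *Mmp12* did not in 5 alternatives. The others that dropped under 2-fold in at least 1 were *C1qa*, *Camp*, *Cd244*, *Csf3r*, *Cst3*, *Cxcl3*, *Cxcr4*, *H2-Ab1*, *H2-Q6*, *Hilpda*, *Il3ra*, *Junb*, *Lmo1*, *Nes*, *Ocstamp*, *Pfkp*, *S100a4* and *Tgfbi*. The medians of the chemokine, growth factor, macrophage, antioxidant, cytokine, Fc receptor, NDRG and transcription factor lists lay near 0 and each changed sign under median-ratio scaling or a mean of each cell's CPM. No paired analysis was possible because each condition has 1 library. Counts under about 20 UMIs per library leave wide intervals, as for *Ctse*.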

Other observations

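The same rule found 753 cells among 8825 kept cells of the library of VD3-treated DCs, 8.53% (7.96 to 9.13%), with a median of 12484 UMIs. In these cells *Csf1r* stood at 359.8 CPM and *Lyz2* at 8969 CPM, while *Ccr2* had 17 UMIs in all, or 1.71 CPM (0.997 to 2.74), against 468 CPM in the untreated cells. *Fn1* stood at 138 CPM, *Mmp12* at 473 CPM, *Spp1* at 1130 CPM, *Arg1* at 8.16 CPM and *Vegfa* at 24.2 CPM. *S100a8* was at 1755 CPM and *Ccl17* at 1509 CPM.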
